A study of Solanum lycopersicum and Solanum pimpinellifolium with 30 samples.

Results

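Landrace 549 is a local tomato variety (Solanum lycopersicum) grown in Argentina, and its ripe fruit was set against that of the other 8 landraces of the same field trial. Its 3 arrays, out of 30 in the series, were chosen by their titles. The comparison group was the equally weighted mean of landraces 3842, 3836, 3815, 3806, 572, 571, 560 and 557, with 3 arrays each, so that 27 arrays entered the comparison. The remaining 3 arrays are of LA1589, an accession of the small-fruited wild tomato Solanum pimpinellifolium, and were left out. All groups are untreated, unmodified plants of 1 field trial that differ in their genotype. Each cultivar was grown as 18 plants, in 3 randomised plots of 6 plants. Fruit was picked at the mature red stage on a pair of days, and the pericarp was taken after the skin, the locule tissue and the seeds had been removed. The labels call the 3 arrays of a landrace biological replicates but do not say whether each came from its own plot, nor on which day or at what hour its fruit was picked. No age of the fruit in days is given, and a landrace is represented here by a single accession.

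The pericarp is the fleshy wall of the tomato. While it is green its plastids carry chlorophyll and photosystems. During ripening, which is driven by ethylene and by MADS-box and other transcription factors, the chloroplasts become chromoplasts, photosynthesis genes are shut down, carotenoids such as lycopene accumulate, and enzymes that loosen the cell wall and make aroma volatiles are induced.

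RNA levels were read on one-colour Affymetrix tomato arrays, and a level below is a quantile-normalised log2 signal, so that a difference of 1 is a 2-fold difference in signal. In bulk tissue, fewer cells of a type and less RNA per cell cannot be told apart. The arrays of 549 lay inside the range of the other landraces on each technical measure. Their deposited medians were 1.50 to 1.59, against 1.28 to 1.79 in the other 24 arrays. Between 64.8% and 72.7% of the probe sets lay above background, against 40.2% to 78.3% elsewhere. Background is the percentile 95 of the 63 reporter probe sets of an array. The signal of the spiked bacterial controls averaged 8.77 to 9.09 in 549. It was higher in 557 (10.17 to 10.65), 572 (10.05 to 10.47) and 3836 (9.515 to 10.07). In 571 (8.08 to 8.53) and 3842 (8.11 to 8.74) it was lower. The part of these control differences in the results was not tested beyond the fit with them as a covariate given below. Across probe sets, the 549 arrays correlated with each other at 0.959 to 0.978, with a median of 0.976. Their correlation with the arrays of 3842 was 0.965 to 0.984, with a median of 0.977. By this measure the 549 arrays were no closer to each other than to those of 3842.

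The labelled tissue was checked against its markers. The 3 measured markers of ripe pericarp, PG2, E8 and Psy1, were well above background in all 3 arrays of 549, and their summed level was 11.1 to 11.5 on the log2 scale, against 9.44 to 11.6 in the other arrays. Both measured markers of epidermis, LE16 and TSW12, lay at background in all 3 arrays of 549. Their summed level was 1.31 to 1.39, against 0.949 to 4.11 elsewhere. The seed markers TAS14 and MAN2 were at background in 2 of the 3 arrays each, with a sum of 1.42 to 1.46 against 1.06 to 1.95. The 3 measured green-tissue markers, CAB4, PSBO and PETE, were above background in every array of 549, with a sum of 8.39 to 8.68 against 3.33 to 8.88.

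Ripe 549 fruit differed from the mean of the other landraces in 151 of 10038 probe sets (1.50%) at a Benjamini-Hochberg adjusted p under 0.05 in limma, the threshold used throughout. Of these, 84 (0.837%) were higher in 549 and 67 (0.667%) were lower. The difference was 2-fold or more for 87 probe sets (0.867%), 63 of them higher and 24 lower. Differences past the threshold ran from -3.0 to 3.54 on the log2 scale, with a median size of 1.11, against a median size of 0.15 over all probe sets. The median standard error of a difference was 0.19. The median difference of all probe sets was -0.02.

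These counts rest on the spread between arrays of a landrace. When each landrace was reduced to 1 mean, and 549 was set against the spread of the 8 other means, limma called 0 probe sets, and 160 had an unadjusted p under 0.05. Leaving out replicate 1 of 549 lowered the count from 151 to 38, and leaving out its replicate 3 lowered it to 53. Without landrace 572 the count was 85. Without replicate 1 of landrace 3815 it was 237. A covariate for the spiked controls gave 77, of which 71 were among the 151. Similar counts need not be the same probe sets: without replicate 2 of 549 there were 129, of which 78 were among the 151.

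Set against the same test for each other landrace, 549 was among those with few differences. The counts were 2347 probe sets for 557, 2270 for 560, 1402 for 572, 833 for 3815, 578 for 3806 and 381 for 3836. Below 549 lay 571 with 75 and 3842 with 16. These 9 comparisons share arrays, and the differences between their counts were not tested.

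**Figure D1:**
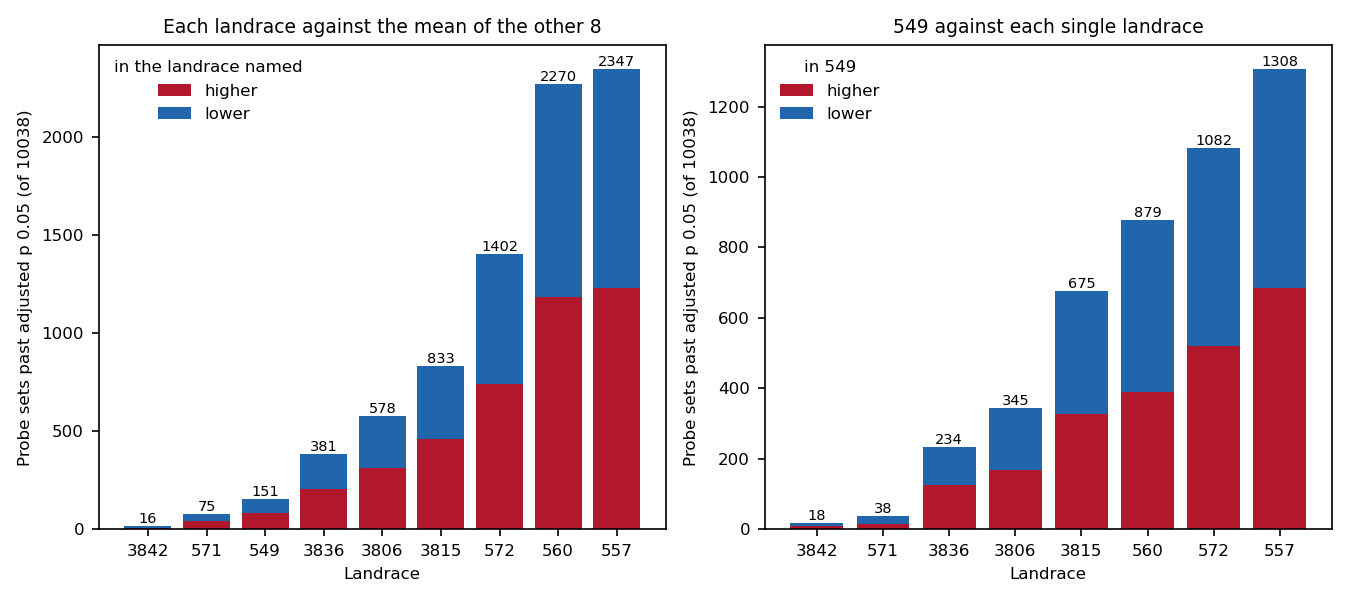
Number of probe sets past an adjusted p of 0.05, out of 10038, with red for higher and blue for lower in the landrace named (left, each landrace against the mean of the other 8) or in 549 (right, 549 against each single landrace). 549 has 151 on the left, between 571 with 75 and 3836 with 381, and on the right its counts run from 18 against 3842 to 1308 against 557.

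Compared with one landrace at a time, 549 differed least from 3842 and 571. It differed from 3842 in 18 probe sets (0.179%) and from 571 in 38 (0.379%). The count was 234 (2.33%) against 3836, 345 (3.44%) against 3806, 675 (6.72%) against 3815, 879 (8.76%) against 560, 1082 (10.8%) against 572 and 1308 (13.0%) against 557. The correlations across probe sets ran in a similar way, as a description: the median over array pairs was 0.977 with 3842 and 0.971 with 571, and 0.938 with 557. The 8 comparisons share the arrays of 549. Landrace 557 also had the smallest share of probe sets above background, at 40.2% to 53.1% in its arrays. Its median SD between arrays was the largest of the landraces, at 0.36 against 0.22 in 549. The part of these array differences in its counts and correlations was not tested.

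No probe set passed when 549 had to differ from each of the other 8 landraces in the same direction. In that limma test 0 probe sets (0%) had an adjusted p under 0.05 and 14 (0.139%) had an unadjusted p under 0.05, with 8 higher and 6 lower. Described genes among the 14 were AG1, GABA-TP1, SIP and hqt. All 3 arrays of 549 lay above all 24 other arrays in 18 probe sets (0.179%) and below them in 5 (0.0498%), and 16 of these 23 were past the threshold against the mean. Among the 84 higher probe sets, 549 had the highest of the 9 landrace means in 57, and among the 67 lower ones it had the lowest in 45. Over all probe sets it was the highest in 6.24% and the lowest in 7.65%. Called probe sets were selected for their distance from the mean of the other landraces. Their ranks follow in part from that selection and do not show that 549 stood apart. A called probe set was past the threshold in a median of 4 of the 8 single comparisons, in 7 of 8 for 3 probe sets and in 8 of 8 for 0. A single comparison sets 3 arrays against 3, and one that misses the threshold does not show that the landrace was close to 549.

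**Figure D2:**
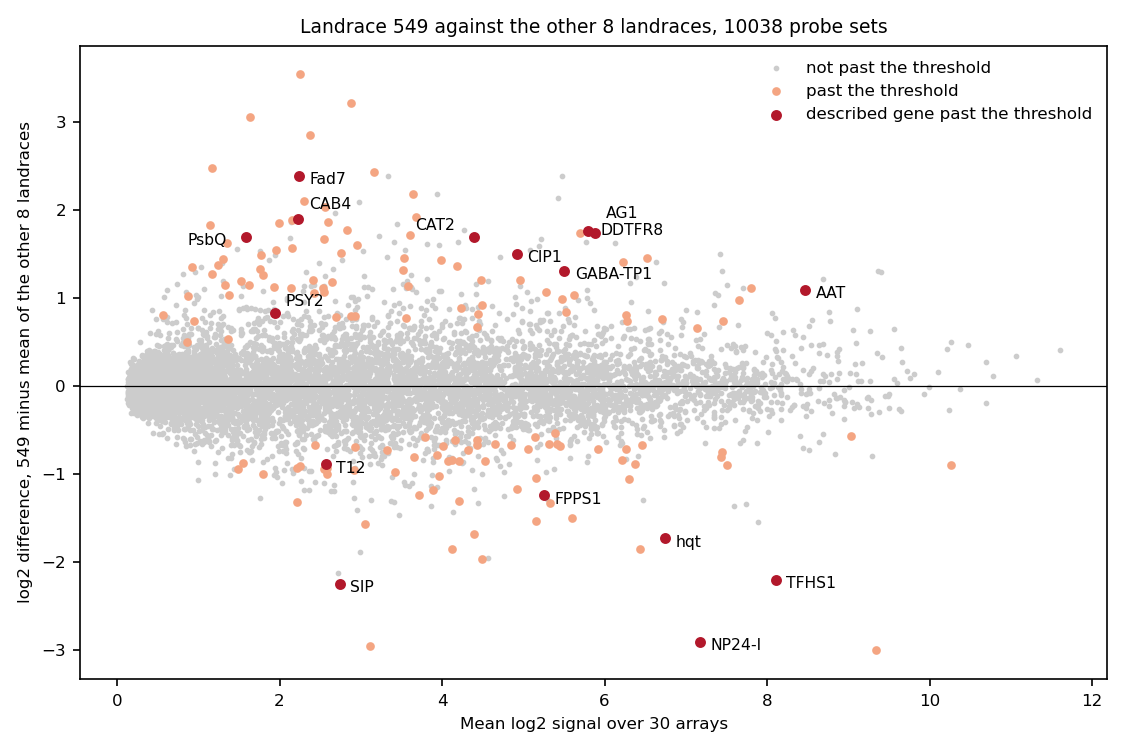
Each point is a probe set, with its mean log2 signal over 30 arrays on the horizontal axis and the log2 difference of 549 from the mean of the other 8 landraces on the vertical axis. Orange and red points are the 151 past the threshold, and the named red points are the described genes, which run from NP24-I at -2.91 to Fad7 at 2.38.

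Most of the called probe sets carry no gene name in the platform annotation. Of the 10038 probe sets 9129 had none, and 743 probe sets could be tied to 661 described genes. Among the described genes 11 (1.66%) were higher in 549 and 6 (0.908%) were lower, beside 0.837% and 0.667% of all probe sets. The described genes follow by what they do, with every array of 549 and the range of the other landraces.

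Fad7, the plastid omega-3 fatty acid desaturase that makes trienoic fatty acids of chloroplast membranes, was the described gene with the highest difference past the threshold. Its level was 3.70, 5.18 and 3.74 in replicates 1 to 3 of 549. In the other 24 arrays it was 0.45 at the lowest, 1.39 at the median and 4.59 at the highest. The replicate at 5.18 exceeded every other array, and 2 arrays of other landraces exceeded the lowest 549 array. The difference was 2.38 ± 0.34 (SE, n = 3 arrays against 24), a 5.21-fold higher signal (adjusted p = 0.000958). Fad7 passed in 6 of 8 single comparisons. The closest landraces were 560, with a mean of 3.60, and 557, with 3.39, and neither differed from 549 past the threshold.

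CAB4, a chlorophyll a/b-binding protein of the light-harvesting antenna, read 3.72, 3.75 and 4.19 in 549. The other arrays ran from 0.48 through a median of 1.69 to 3.92. Landrace 560 held the 2 other arrays above the lowest 549 array, and its mean was 3.44. The difference was 1.89 ± 0.30 (adjusted p = 0.00215), with 5 of 8 single comparisons past the threshold. PsbQ, a protein of the oxygen-evolving complex of photosystem II, was more scattered, at 2.34, 3.11 and 4.14 in 549, against 0.21 to 4.37 with a median of 1.16 in the other arrays. Its groups overlapped, with 6 other arrays above the lowest 549 array. The difference was 1.69 ± 0.41 (adjusted p = 0.0388). That call ended without any one of 10 arrays or 5 landraces, with differences of 1.22 to 2.12 and adjusted p of 0.0503 to 0.346. The arrays were the 3 of 549, 3815 replicates 2 and 3, 3842 replicates 2 and 3, 3806 replicate 3, 3836 replicate 1 and 572 replicate 1, and the landraces were 557, 572, 3806, 3815 and 3836. It also ended with the replicate block (adjusted p = 0.0545) and with the spiked controls as a covariate (1.51, adjusted p = 0.129).

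The photosynthesis list held 9 measured genes. CAB4 and PsbQ were higher in 549, as were 0.837% of all probe sets, none was lower, and 7 did not pass. Only 1 of the 9 was called with the replicate block or with the spiked controls as a covariate. The median difference was 1.26, against -0.02 over all probe sets. The difference was above 0 for 9 of 9, and 549 had the highest landrace mean for 5, as it had for 6.24% of all probe sets. PETE, plastocyanin, read 7.29, 7.73 and 7.36 in 549 against 0.72 to 8.50 elsewhere, a difference of 2.14 ± 0.69 that did not pass (adjusted p = 0.148). PSBO, another protein of the oxygen-evolving complex, had a difference of 1.64 ± 0.50 (adjusted p = 0.127), and psaD, a subunit of photosystem I, 1.26 ± 0.34 (adjusted p = 0.067). PSBR of photosystem II was at 9.34, 9.29 and 9.68 and did not pass at 0.74 ± 0.25 (adjusted p = 0.186). CAB5 lay at background in all 3 arrays of 549 and in all 8 other landraces.

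The mean level over the 9 photosynthesis genes was 5.10 ± 0.55 (SD, n = 3) in 549. Next came 560 with 4.81 ± 0.51 and 3842 with 4.53 ± 0.18, and the arrays of both overlapped those of 549. The lowest was 3815, with 2.70 ± 0.91. Between the arrays of 549 the list was uneven: replicate 3 was the highest for 8 of 9 genes, and the median difference from the other landraces was 0.96 in replicate 1, 0.70 in replicate 2 and 2.12 in replicate 3. Over all probe sets replicate 3 was the highest in 34.9%. Without replicate 3 the list's median was 0.83, with 7 of 9 differences above 0 and 1 gene past the threshold.

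Heat shock genes also had a high median difference, with a wide spread between the arrays of 549. None of the 9 measured genes passed in either direction, although the median difference was 1.14 and 8 of 9 lay above 0. ER-SHSP, a small heat shock protein of the endoplasmic reticulum, had the largest difference at 1.62 (adjusted p = 0.414). The small heat shock protein vis1 read 9.10, 8.01 and 10.20 in 549, against 2.82 to 9.52 with a median of 7.89 elsewhere, a difference of 1.50 ± 0.47 (adjusted p = 0.134). HSP17-6 read 10.20, 9.14 and 11.19 and had a difference of 0.65 (adjusted p = 0.472). HSP21, the small heat shock protein of the plastid, read 8.01, 6.86 and 10.70, a difference of 1.14 ± 0.61 (adjusted p = 0.481).

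Replicate 2 of 549 was the lowest for 9 of 9 heat shock genes and replicate 3 the highest for 8 of 9. The median difference by array was 0.67, -0.52 and 2.60 in replicates 1, 2 and 3. The median SD of these genes between the 549 arrays was 1.09, against 0.22 over all probe sets in 549 and 0.56 for the same genes in the median landrace. The mean level over the list was 8.30 ± 1.21 (SD, n = 3) in 549, beside 8.32 ± 0.77 in 3806, 8.31 ± 0.61 in 3815 and 8.28 ± 0.38 in 3836. The lowest was 560 with 6.12 ± 0.42. Without replicate 3 of 549 the list's median fell to 0.28, and without replicate 2 it was 1.94. Over all probe sets replicates 2 and 3 were also the least alike, with 1046 probe sets (10.4%) 2-fold or more apart, against 448 (4.46%) between replicates 1 and 2 and 528 (5.26%) between replicates 1 and 3.

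**Figure D3:**
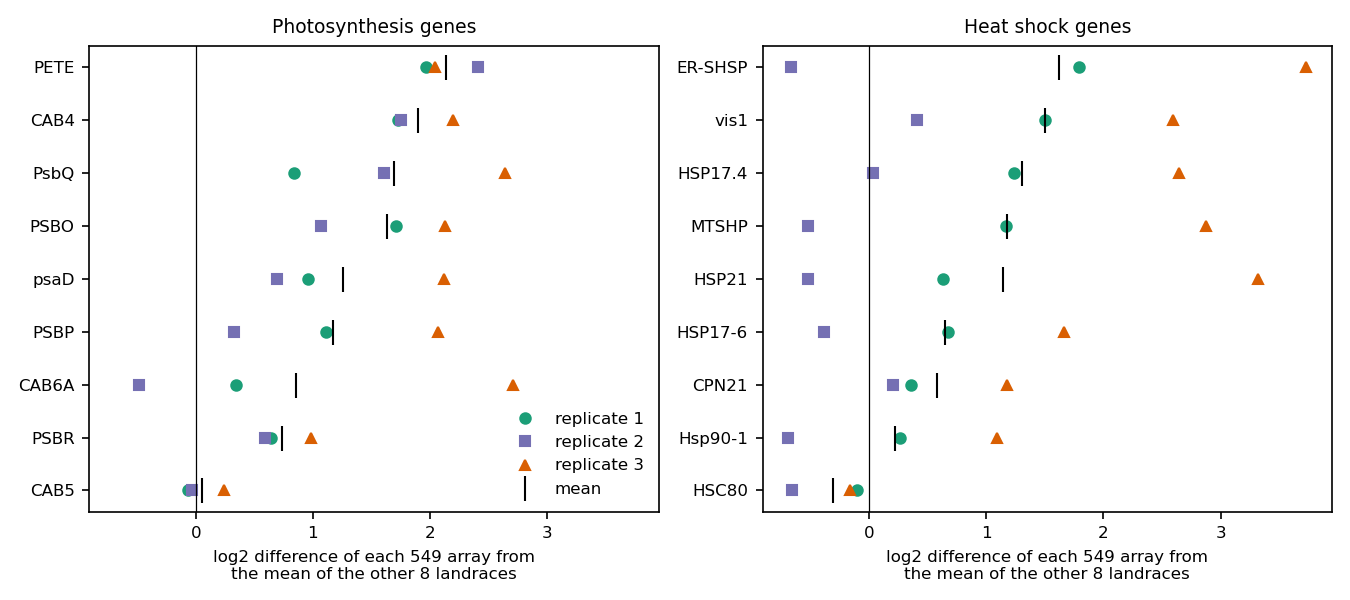
Log2 difference of each array of 549 from the mean of the other 8 landraces for 9 photosynthesis genes (left) and 9 heat shock genes (right), with a bar at the mean of the 3 arrays. Replicate 3 is the rightmost for 8 of 9 genes in each panel, and replicate 2 is the leftmost for 9 of 9 heat shock genes.

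Among regulators, AG1, an AGAMOUS-type MADS-box transcription factor of floral organs and fruit, stood clear of every other landrace array. It read 7.46, 7.31 and 7.03 in 549, whereas the other 24 arrays ran from 3.80 to 6.51 with a median of 5.68. The difference was 1.74 ± 0.31 (adjusted p = 0.00505), and the 2 closest landraces were 560 at a mean of 6.09 and 557 at 6.07. It passed in 5 of 8 single comparisons, and its p in the test against every landrace was 0.00996 before adjustment and 1 after. Without replicate 1 of 549 the difference was 1.65 with an adjusted p of 0.0593.

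CIP1 was even within 549 at 6.10, 6.42 and 6.16. The other arrays ran from 2.84 to 7.17 with a median of 4.47. Here 549 ranked 3 of 9, after 557 (mean 6.94) and 560 (6.54), and the remaining 6 landraces had lower means of 3.23 to 4.51. The difference was 1.50 ± 0.24 (adjusted p = 0.00215), with 6 of 8 single comparisons past the threshold. A second probe set of CIP1 differed by 0.74 (adjusted p = 0.0206). Since 557, 572 and 3836 lay at background there, its signal in 549 was at least 1.49-fold above the mean of the other landraces. Landrace 560, with a mean of 2.36, lay above 549, with 1.63. This second call ended without landrace 572 (0.68, adjusted p = 0.0648) or 3806 (0.68, adjusted p = 0.0518). The call of the first probe set ended with all 30 arrays in the fit (adjusted p = 0.0764) and with LA1589 in the comparison group (adjusted p = 0.0715). DDTFR8 read 7.18, 6.70 and 8.23, against 1.92 to 7.08 elsewhere with a median of 6.14. Its difference of 1.76 ± 0.43 (adjusted p = 0.0388) came from 3 single comparisons, those with 557, 560 and 572, whose means were 2.74, 4.67 and 4.41, and the other landraces averaged 6.43 to 6.97.

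That DDTFR8 call ended without 557 or 560, or without any one of 11 arrays, namely 549 replicates 1 and 3, 560 replicates 1 and 3, 571 replicates 1 and 3, 3842 replicates 2 and 3, 3806 replicate 3, 3815 replicate 3 and 3836 replicate 1. Its difference was lowest, at 1.33, without replicate 3 of 549 (adjusted p = 0.329). It also ended with the spiked controls as a covariate (1.57, adjusted p = 0.129). The ethylene and ripening list, of 49 measured genes, held AG1 and DDTFR8 as higher, none as lower, and 47 that did not pass, with a median of 0.00. RIN, the MADS-box regulator of ripening, was at 7.92, 7.60 and 7.25 in 549, a difference of 0.07 ± 0.19 (adjusted p = 0.954). The ripening gene E8 differed by -0.12 ± 0.45 (adjusted p = 0.961) and the ethylene response factor JERF1 by -0.15 (adjusted p = 0.777).

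In primary metabolism GABA-TP1, the transaminase that breaks down gamma-aminobutyric acid, was above every other landrace array. It read 7.04, 6.56 and 6.27 in 549, against 4.28 to 6.26 with a median of 5.33. The gap between the lowest 549 array and the highest other array was small, and landrace 557 was closest with a mean of 6.05. The difference was 1.31 ± 0.20 (adjusted p = 0.00215), with 5 of 8 single comparisons past the threshold. In the organic acid and GABA list, 14 of the 15 measured genes did not pass, and the median was 0.09. The largest of them, mdh, a malate dehydrogenase, differed by 1.78 (adjusted p = 0.12). The malic enzyme ME1 differed by 0.34 (adjusted p = 0.684).

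CAT2, a catalase that breaks down hydrogen peroxide, read 6.42, 4.44 and 6.30 in 549, so that replicate 2 lay among the other landraces, which ran from 2.31 to 5.41 with a median of 3.81. The difference was 1.70 ± 0.31 (adjusted p = 0.00655). It was 1.34 without replicate 1 (adjusted p = 0.107), 1.41 without replicate 3 (adjusted p = 0.104) and 2.33 without replicate 2 of 549 (adjusted p = 0.000248). The single comparisons that passed were 4, with 557, 571, 3806 and 3842. The other 18 of 19 antioxidant genes did not pass, and their list had a median of -0.01. The catalase cat1 differed by -0.63 ± 0.35 (adjusted p = 0.502).

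AAT, the alcohol acyltransferase that forms volatile esters, was called higher in 549 because of 1 landrace. It read 9.42, 9.37 and 9.11 in 549. In landrace 572 it read 0.98, 0.45 and 0.80, at background in 2 of 3 arrays, whereas the means of the other 7 landraces reached up to 9.44. The difference from the mean of all 8 was 1.09 ± 0.16 (adjusted p = 0.000984), and without 572 it was 0.03 (adjusted p = 0.979). Only the comparison with 572 passed, and 549 ranked 5 of 9. Besides Fad7 and AAT, the other 10 of 12 genes of the aroma list did not pass, and the list's median was 0.08. ADH2, an alcohol dehydrogenase of aroma formation, differed by 0.12 (adjusted p = 0.88).

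PSY2, a phytoene synthase at the entry to carotenoid synthesis, read 2.48, 2.69 and 3.07 in 549, against 1.12 to 3.14 with a median of 1.89. The difference was 0.83 ± 0.21 (adjusted p = 0.0464), and it ended without any one of 17 of the 27 arrays or 5 of the 8 landraces, at differences of 0.67 to 0.97 and adjusted p of up to 0.319. Those arrays were the 3 of 549, the 3 of 571, 3806 replicates 1 and 3, 3842 replicates 1 and 3, 572 replicates 1 and 3, 3815 replicates 2 and 3, 560 replicates 2 and 3 and 3836 replicate 1, and the landraces were 571, 3806, 3815, 3836 and 3842. The PSY2 call also ended with LA1589 in the comparison group (adjusted p = 0.0593), all 30 arrays in the fit (0.0991), an intensity trend and robust prior (0.0674), the replicate block (0.0589) and the spiked controls as a covariate (0.127). Psy1, the fruit isoform, had its highest probe set at 9.79, 9.79 and 9.07, a difference of 0.84 ± 0.26 that did not pass (adjusted p = 0.12). Landrace 560 was apart there, with a mean of 5.36, and without it the difference was 0.36. Another probe set of Psy1 did pass, at 0.78 ± 0.20 (adjusted p = 0.0466), and without 560 it was at 0.55 (adjusted p = 0.209). That call also ended without 571, 572, 3806, 3836 or 3842, at 0.76 to 0.82. The third did not pass, at 0.24 (adjusted p = 0.426). In the carotenoid list 16 of 17 genes did not pass, and the median was 0.23 with 11 above 0. VDE, violaxanthin de-epoxidase, had the highest difference of them, at 1.0 (adjusted p = 0.0883). It read 0.60, 0.82 and 3.09 in 549, so that replicate 3 was apart, and 4 of the other landraces lay at background. Without replicate 3 the difference was 0.21 (adjusted p = 0.825).

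The described gene lower in 549 by the largest amount was NP24-I. It encodes a pathogenesis-related protein of the osmotin type. It read 5.16, 5.18 and 2.33 in 549, against 4.49 to 10.16 with a median of 7.28 elsewhere. Landrace 3836, with a mean of 4.94, overlapped 549, and 571 was the highest at 9.38. The difference was -2.91 ± 0.54 (adjusted p = 0.00659), with 5 of 8 single comparisons past the threshold. It was -1.96 without replicate 3 of 549 (adjusted p = 0.132), which moves the fold by more than 1.5 times. Of the 23 measured defence and wound genes 22 did not pass, and the median was -0.11. The chitinase CHI9 read 0.46, 0.86 and 0.18, at background in 2 of 3 arrays of 549, against 0.24 to 6.60 elsewhere, a difference that did not pass (adjusted p = 0.309). The leucine aminopeptidase LAPA2 differed by -0.13 (adjusted p = 0.874).

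SIP lay below every other landrace array in 549. It read 0.53, 1.2 and 0.89, whereas the other 24 arrays ran from 2.0 to 4.27 with a median of 3.14. The 3 arrays of 549 were above background, but replicate 1, at 0.53, lay close to its background of 0.46. The background was 0.45 in replicate 2 and 0.66 in replicate 3. The difference was -2.25 ± 0.33 (adjusted p = 0.000984), with 7 of 8 single comparisons past the threshold. The exception was 560, with a mean of 2.21 (difference -1.33, adjusted p = 0.0594). In the test against every landrace its p was 0.00573 before adjustment and 1 after.

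hqt, the transferase that makes chlorogenic acid, the main soluble phenolic ester of tomato, read 4.25, 6.44 and 4.46 in 549. The other arrays ran from 5.44 to 8.55 with a median of 6.60, so that replicates 1 and 3 lay below them all and replicate 2 lay inside. The difference was -1.73 ± 0.34 (adjusted p = 0.00958). It was -1.33 without replicate 1 (adjusted p = 0.141), -1.43 without replicate 3 (adjusted p = 0.129) and -2.42 without replicate 2 (adjusted p = 0.000277). Landrace 557 was the highest, with a mean of 8.38, and 3842 was the closest, with 6.07. The other 9 of 10 phenylpropanoid genes did not pass, with a list median of -0.09. CCR1, a cinnamoyl-CoA reductase of lignin synthesis, differed by 0.29 (adjusted p = 0.853).

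FPPS1, the farnesyl diphosphate synthase that feeds sterol and sesquiterpene synthesis, was even in 549, at 3.93, 4.16 and 3.89. The other arrays ran from 4.05 to 6.84 with a median of 5.25, and 2 of them lay below the highest 549 array. The difference was -1.24 ± 0.31 (adjusted p = 0.0414). The call ended without any one of 12 arrays or 3 landraces, at differences of -1.33 to -1.09 and adjusted p of up to 0.202. The samples left out were the 3 arrays of 549, 571 replicates 1 and 3, 572 replicates 1 and 2, 3842 replicates 2 and 3, 3815 replicate 3, 3836 replicate 2 and 560 replicate 1, and landraces 557, 571 and 572. It also ended with the spiked controls as a covariate (-1.23, adjusted p = 0.105) and with the values as deposited (-1.2, adjusted p = 0.0532). Both other sterol and isoprenoid genes measured did not pass, and SlSSR1, a sterol side-chain reductase, differed by -0.46 (adjusted p = 0.269).

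A pair of further described genes were lower. TFHS1 read 5.37, 6.91 and 5.76 in 549 against 6.06 to 10.96 with a median of 8.31, and 3842, with a mean of 6.16, lay at its level. The difference was -2.20 ± 0.44 (adjusted p = 0.0117). It ended without landrace 572, the highest at a mean of 10.66 (-1.85, adjusted p = 0.0645), and without replicate 1 (-1.88, adjusted p = 0.135) or replicate 3 of 549 (-2.07, adjusted p = 0.107). T12 read 1.80, 1.68 and 1.84 against 1.82 to 3.52 with a median of 2.65, and 1 other array fell below the highest 549 array. Its difference of -0.89 ± 0.21 (adjusted p = 0.0334) ended without any array of 549 or without landrace 572, 3806 or 3815, at -0.92 to -0.81. It also ended with median centring (-0.86, adjusted p = 0.0695), the spiked controls as a covariate (-0.92, adjusted p = 0.0679) and the values as deposited (-0.82, adjusted p = 0.0878). The 11th higher gene, THOX2, differed by 0.80 ± 0.20 (adjusted p = 0.0497). It fell outside the rule for named genes and is named after its values were seen.

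**Figure D4:**
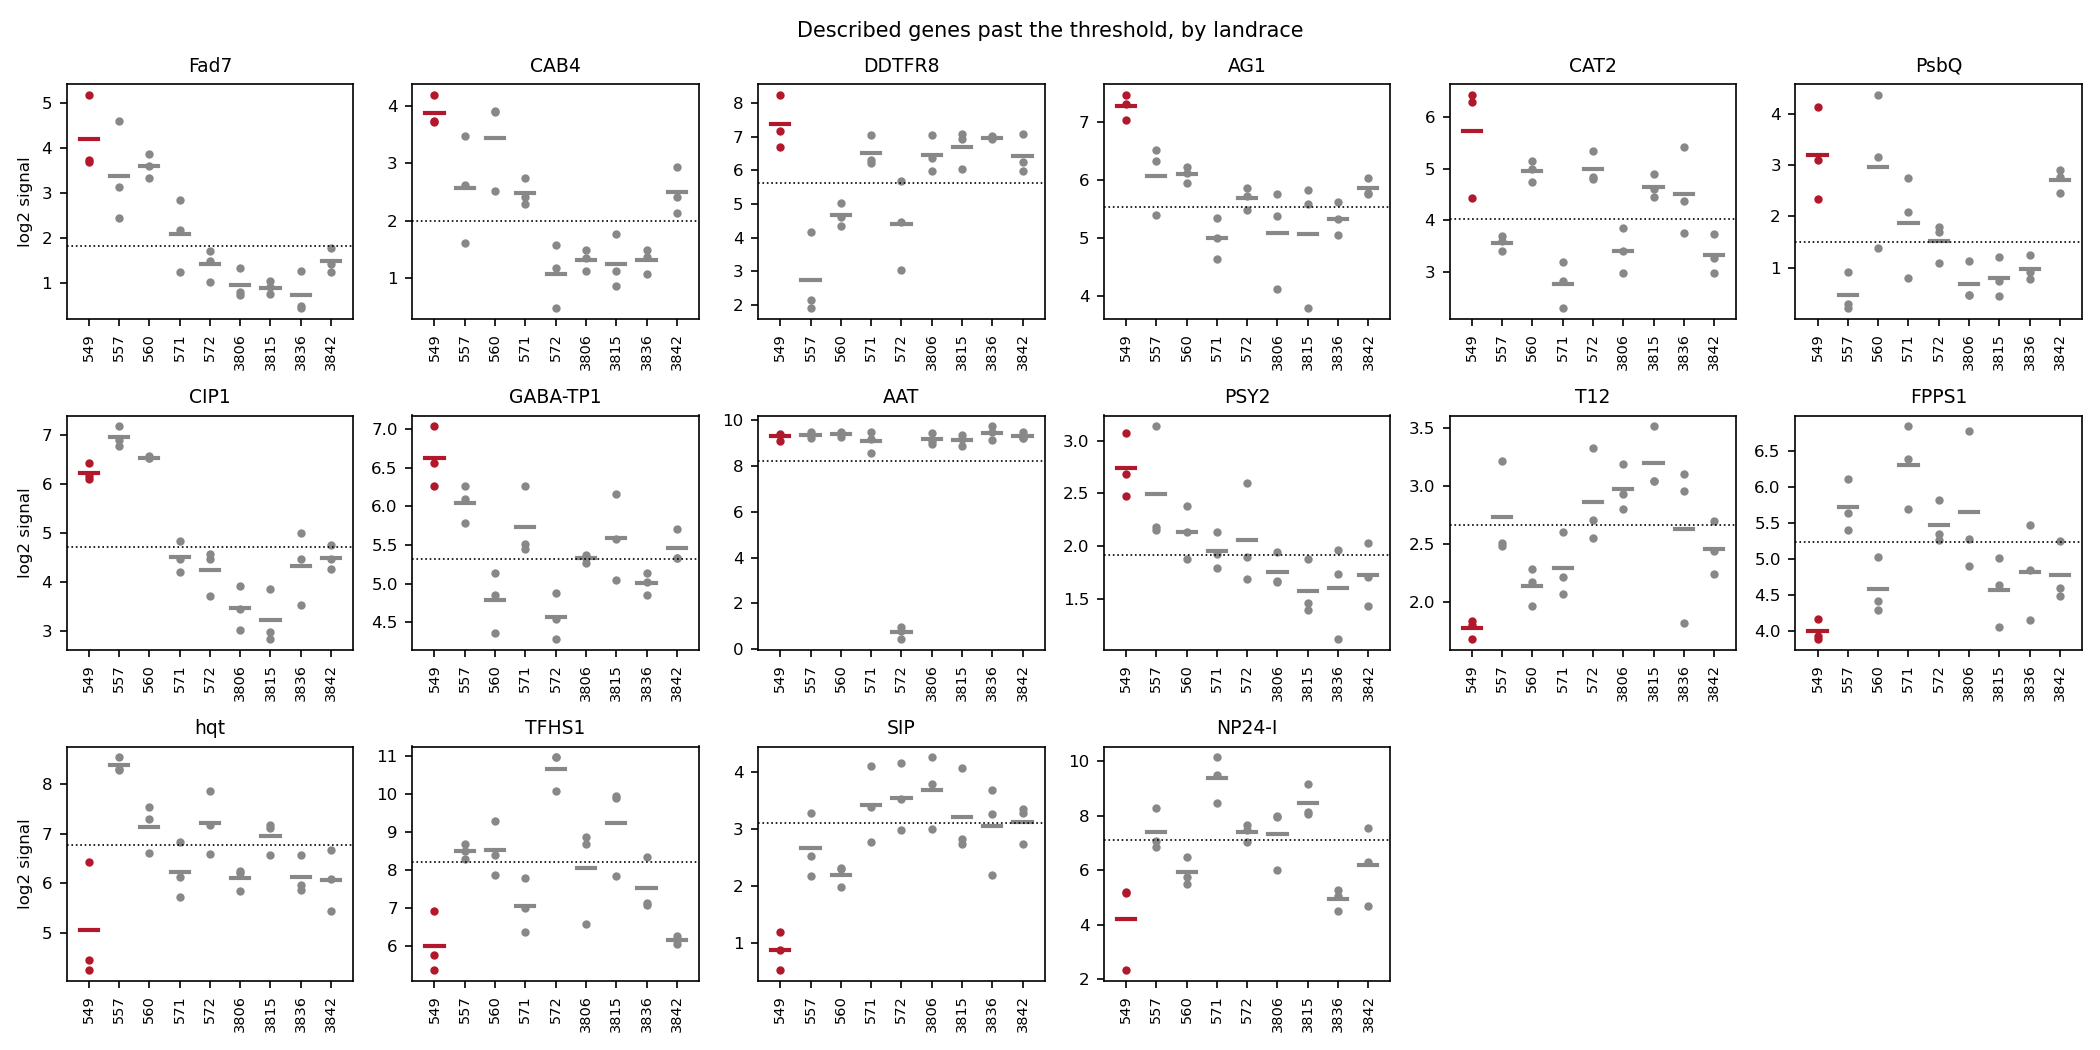
Log2 signal of the 16 described genes named by rule as past the threshold, by landrace, with 1 point per array, a bar at each landrace mean and a dotted line at the mean of the other 8 landraces. 549 (red) lies wholly above the grey points for AG1 and GABA-TP1 and wholly below them for SIP, whereas for AAT only 572 is apart.

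Several pathways of ripe fruit showed no called gene in either direction. The cell wall list held 51 measured genes, with a median of -0.07. PG2, the polygalacturonase that degrades pectin during softening, was at 10.77, 10.42 and 10.56 in 549 against 7.43 to 10.77 elsewhere, a difference of 1.3 ± 0.48 (adjusted p = 0.239). LeXTH9, a xyloglucan endotransglucosylase, had the lowest difference, at -1.29 (adjusted p = 0.501). Of 23 sugar and starch genes none passed, with a median of 0.02, and the acid invertase AI differed by -0.79 ± 0.43 (adjusted p = 0.496). The list of 15 genes for fruit size, shape and cell cycle had a median of -0.04, and cdc2A-2, a cyclin-dependent kinase, differed by -0.14 (adjusted p = 0.888). The 18 hormone genes had a median of -0.07, with CYP85A1 of brassinosteroid synthesis at -0.83 (adjusted p = 0.248). The 5 metallothioneins had a median of -0.16, with LEMT1 at -0.19 (adjusted p = 0.699). A p that misses the threshold does not show that these genes were alike.

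**Figure D5:**
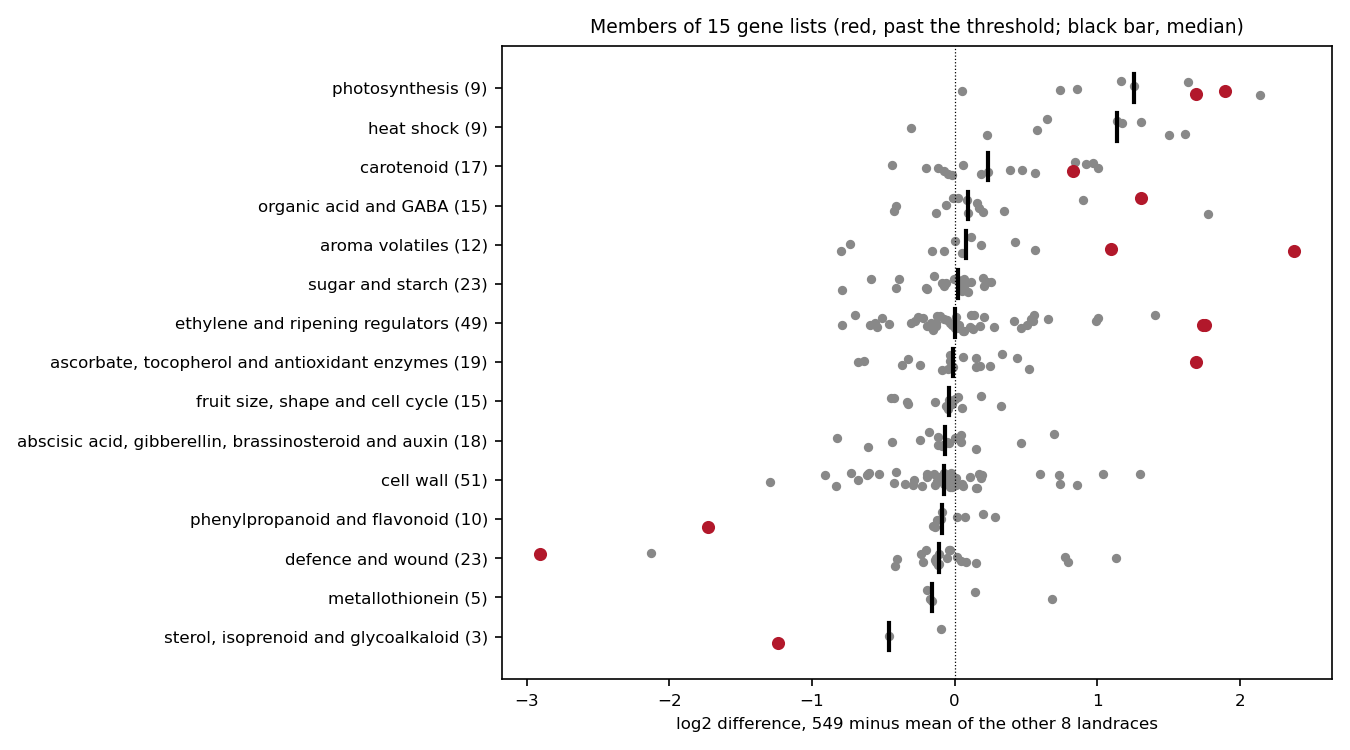
Log2 difference of 549 from the mean of the other 8 landraces for each member of the 15 gene lists with 3 or more measured genes, with the number measured in brackets, red for members past the threshold and a black bar at the list's median. The medians of photosynthesis (1.26) and heat shock (1.14) lie to the right, and those of the other lists lie between -0.46 and 0.23.

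The genes that differed from single landraces are named after their values were seen. Most of those given here were also past the threshold against the mean of all 8. Not past it there were ER1, MTSHP, HSP17.4, PETE, tXET-B2, ETR2 and the highest probe set of Psy1. Against 3842, the landrace with the fewest differences, 4 of 661 described genes (0.605%) passed, beside 0.179% of all probe sets. They were SIP at -2.26, CIP1 at 1.73, CAT2 at 2.39 and Fad7 at 2.72. Against 571 there were 8 (1.21%), beside 0.379% of all probe sets. Of these NP24-I had the largest difference at -5.16 (adjusted p = 0.00088), from a mean of 9.38 ± 0.86 (SD, n = 3) in 571 to 4.22 ± 1.64 in 549. ER1 differed there by -4.58, FPPS1 by -2.31 and AG1 by 2.27.

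Some of these genes also led against the landraces with more differences. SIP was 2.18 lower and Fad7 3.46 higher in 549 than in 3836, where Fad7 lay at background in 2 of 3 arrays. NP24-I was 4.24 lower than in 3815 and 3.19 lower than in 557. DDTFR8 was 4.63 higher than in 557, and TFHS1 4.65 lower than in 572. Psy1 was 4.19 higher in 549 than in 560 (adjusted p = 1.53e-07), where it read 5.51, 5.04 and 5.53 in the 3 arrays of 560. The mitochondrial small heat shock protein MTSHP was 4.09 higher than in 560, and HSP17.4 3.90 higher than in 557. These were the lowest landraces for the respective gene, and 549 ranked 4 of 9 for both genes. The arrays of 549 were spread, at 7.85, 6.16 and 9.56 for MTSHP and 8.57, 7.37 and 9.98 for HSP17.4. hqt was 3.33 lower than in 557, whose arrays read 8.55, 8.30 and 8.31. Plastocyanin (PETE) was 4.37 higher than in 3806 and 4.64 higher than in 3815. The arrays of both were widely spread, at 5.22, 0.72 and 3.34 in 3806 and 5.61, 1.96 and 0.89 in 3815. The xyloglucan enzyme gene tXET-B2 was 4.03 lower than in 3806, where it averaged 6.74 ± 0.53. The ethylene receptor ETR2 was 1.87 lower than in 3836 (adjusted p = 0.00383). Described genes past the threshold numbered 88 of 661 (13.3%) against 557, 84 (12.7%) against 572, 63 (9.53%) each against 560 and 3815, 35 (5.3%) against 3806 and 18 (2.72%) against 3836. They are to be read beside the shares of all probe sets, which were 13.0%, 10.8%, 8.76% and 6.72%, 3.44% and 2.33% in the same order.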

How the data were processed

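The deposited series matrix holds 1 column of log2 signals per array for 10209 probe sets. Per the file headers and the labels, neither the authors' software nor their normalisation is given in the sources used here, and the log base was taken as 2 from the steps of the spiked controls. Deposited values ran from -0.42 to 12.55. All 30 arrays were quantile normalised together, and 171 control probe sets were then left out.

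limma 3.58.1 (statmod 1.5.0, R 4.3.3) was fitted to 27 arrays with 1 mean per landrace (18 residual degrees of freedom). The contrast was 549 minus the mean of the other 8, two-sided, with Benjamini-Hochberg adjustment over 10038 probe sets. The test against every landrace took the largest of 8 p-values where all differences had 1 sign. The fits were tested on simulated data. The simulation gave all landraces the same mean apart from set shifts in 549. It held no variation between the other landraces, so it cannot test the calls against such variation. Arrays give no counts, so their number limits the precision, and p-values measure the spread between a landrace's arrays only.

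Names come from the platform annotation of 2007. It named 909 probe sets, and 885 matched the reference gene table of assembly SLM_r2.1, used for names only. A gene is represented by its probe set with the highest mean. Named genes were the 10 highest and 10 lowest described genes past the threshold, any past the test against every landrace, up to 2 passing members of each list, and its non-passing member with the highest mean. Gene lists were matched on symbols, and 57 entries were added by name after the annotation was read. The members and lists were chosen with earlier results of these data known. Genes described as pathway context beyond the rule were chosen after their values were seen. A planned search for promoter motifs was not run. Figures used Python 3.11.15, numpy 2.4.6, pandas 2.3.3 and matplotlib 3.10.9.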

Additional observations from a re-analysis of the deposited data

How the results depend on the processing

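The counts of called, higher, lower and 2-fold probe sets (151, 84, 67 and 87) were 0, 0, 0 and 0 with 1 mean per landrace, 771, 432, 339 and 202 with array weights, and 77, 43, 34 and 51 with the spiked controls as a covariate. Leaving out 1 landrace gave 85 to 184, 48 to 107, 37 to 79 and 63 to 110, and leaving out 1 array gave 38 to 237, 26 to 145, 12 to 92 and 34 to 120; the causes were not tested. The count by the test against every landrace was 0 in each setting it was run in, which left out 1 mean per landrace. Samples with the same replicate number did not deviate together (median correlation -0.006 over 108 pairs, 5 of 27 arrays closest to their own number), and the replicate block gave 125 calls, 70 higher and 55 lower, 74 by 2-fold or more. The values as deposited gave 136 calls (88 higher and 48 lower) and median centring 137. Raising values to background moved the median of all probe sets to -0.21. Directions turned in these genes, none past the threshold. SODCC.1 moved from -0.031 to 0.0977 as deposited, 0.0584 with median centring and 0.0459 or 0.0077 without 560 or 571, and ranged from -0.148 to 0.102 without 1 array. LE16 moved from -0.022 to 0.0301 with array weights, 0.0789 with the spiked controls and 0.152 without 557, and ranged from -0.095 to 0.122 without 1 array. ADH2 moved from 0.116 to -0.0516 with quantile normalisation of 27 arrays, and ranged from -0.0181 to 0.335 without 1 array. TAS14 ranged from -0.152 to 0.0082, and cdc2A-2 from -0.357 to 0.035, without 1 array. LAPA2 moved from -0.132 to 0.0975 with array weights. Fad7, CAB4, GABA-TP1, SIP and the first probe set of CIP1 kept their call without any single array or landrace. Every named gene lost its call with 1 mean per landrace. Over 48 fits the median of the photosynthesis list stayed between 0.83 and 1.59, with 0 to 6 genes called higher, and that of the heat shock list between 0.28 and 1.94, with 0 to 2. Probe sets near background, such as LE16, TSW12, TAS14, MAN2 and CAB5, give only a bound. No gene that the rule names as past the threshold needed a bound, so the background at percentile 75 gave no value.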

Other observations

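LA1589 was left out of the comparisons, and its levels are given as values only, set beside the same genes in 549 and the 8 other landraces. AG1 averaged 7.39 ± 0.40 (SD, n = 3) in LA1589, close to 7.27 ± 0.22 in 549 and above the landrace means of 4.99 to 6.09. CAT2 averaged 5.99 ± 0.12 in LA1589, against 5.72 ± 1.11 in 549. NP24-I was at 10.51 ± 0.33 in LA1589 against 4.22 ± 1.64 in 549, and FPPS1 was at 6.71 ± 0.31 against 3.99 ± 0.15. hqt averaged 8.20 ± 0.30 in LA1589 against 5.05 ± 1.21. SIP was spread in LA1589, at 0.12, 3.30 and 1.45, and so was CIP1, at 6.63, 2.98 and 5.94. The photosynthesis list averaged 3.40 ± 0.61 in LA1589 and the heat shock list 6.90 ± 0.03.

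The largest differences of 549 were in probe sets without a gene name, which are given by ID after their values were seen. Les.3073.1.S1_at read 5.28, 4.42 and 7.01 in 549, against 0.10 to 7.01 with a median of 1.36 elsewhere, a difference of 3.54 (adjusted p = 0.00436). Landraces 572 and 3836 lay at background there, so that the signal in 549 was at least 10.8-fold above the mean of the other landraces. The closest was 560, with a mean of 5.32. Les.5812.1.S1_at differed by 3.21 (adjusted p = 0.000119) and passed in 7 of 8 single comparisons, although 560, with a mean of 5.93, lay above 549. Les.4312.2.S1_at read 5.11, 9.52 and 5.95, a difference of -3.0 (adjusted p = 0.00436), with replicate 2 inside the range of 7.56 to 10.85 of the other arrays. LesAffx.49321.1.S1_at differed by -2.95 (adjusted p = 0.0487), and landrace 3815, with a mean of 0.49, lay below 549.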
